A study of Mus musculus with 6 samples.

Results

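TRBV16 is the mouse gene segment for the V-beta-11 region of TCR-β, the β chain of the T cell receptor. Its members here are the clonotypes listed under TRBV16 whose complementarity-determining region 3 (CDR3) carries no stop (*) or frame (.) mark, where rows with the same TRBV gene, TRBJ gene and CDR3 residues form 1 clonotype. They number 13417 of 187625 clonotypes in all. The gene was selected by its measured reads: it carries the clonotype that was the most abundant of the whole library in treated tumor 2 and in distant tumor 2, so its read shares and the levels of that clonotype are given as descriptions, with no test.

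A TCR-β chain is assembled in the thymus by joining a V, a D and a J segment, with bases trimmed and added at the joints. The CDR3 spans these joints, is nearly private to each T cell clone and contacts the peptide on an MHC molecule, whereas the V segment alone encodes the other loops that contact MHC. T cells with V-beta-11 are known for their removal in mouse strains that carry the class II molecule I-E together with certain endogenous retroviral superantigens. C57BL/6 mice lack I-E and keep them.

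All animals were C57BL/6 mice with MO4 melanoma, a B16F10 line that expresses ovalbumin (OVA), which was inoculated subcutaneously into each hindlimb on day 0 at 100000 cells per site. The treated tumor is the right one, next to which IFN-α-iPSC-pMC (interferon-α-producing myeloid cells grown from pluripotent stem cells) were injected 5 times between days 5 and 13 at 1000000 cells per dose. The distant tumor is the left one of animals treated in this way, and the spleens come from such animals too, so no library is from an untreated mouse. RNA was taken on day 14. There are 2 libraries per tissue with the numbers 1 and 2. Since the series names 2 mice, libraries of different tissues with the same number may share a mouse, so the 6 libraries are not independent. The p-values below measure the spread between these libraries and not between mice. Tests over 6 libraries take them as separate units, so their p-values may be too small. The libraries hold TCR-β sequences only, so no markers of the tissues were measured, and more T cells of a clone cannot be told apart from more TCR-β RNA per cell.

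The libraries held between 42320 and 135599 reads without marks, called productive, and between 3704 and 9410 of them were TRBV16 reads. The reads carry no molecular identifiers, so all intervals (Wilson, 95%) and the floor of 3 reads set by a count of 0 cover counting error only. The tumors share another property that touches all values counted over clonotypes. Between 34.4% and 57.6% of the TRBV16 clonotypes of a tumor differed by at most 2 residues from a clonotype with the same TRBJ gene and CDR3 length, at least 20 reads and at least 20 times as many reads, against 0.378% and 0.993% in spleens 1 and 2. These are called near-copies here. They held 7.18% to 10.1% of the TRBV16 reads of a tumor, and among the other TRBV genes they made up 20.3% to 49.1% of tumor clonotypes. Their part in each result was not tested, other than by leaving them out. In spleens 1 and 2 the most abundant TRBV16 clonotypes had only 22 and 32 reads. The limit of 20 reads thus leaves little room for near-copies in spleens, and leaving near-copies out changes mainly the tumors.

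Sequences show how a TRBV16 CDR3 is built. TRBV16 lies at chr6:41151740-41152230 on the plus strand (GRCm38, GENCODE M21), and its 3′ end, with the part that enters the CDR3 in capitals, is printed with the 5′ end of TRBJ2-7 (chr6:41543810-41543856), where capitals mark the bases up to the last CDR3 codon, and with the D segment TRBD2 (chr6:41542163-41542176).

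TRBV16 3′ end: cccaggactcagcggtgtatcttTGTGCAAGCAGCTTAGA

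TRBD2: GGGACTGGGGGGGC

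TRBJ2-7 5′ end: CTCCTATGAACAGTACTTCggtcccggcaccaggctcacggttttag

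The 17 capital bases of TRBV16 hold 5 whole codons, which read CASSL, and 2 further bases, GA, which begin a codon for E or D with any next base. TRBD2 reads GTGG, GLGG or DWGG in its 3 frames. TRBJ2-7 contributes residues up to SYEQYF.

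The clonotypes on which the results turn are named by letter. CDR3s of up to 14 residues are shown whole, and longer ones from residue 5 and without the last 2 residues. The first set shows the most abundant clonotype and its neighbors that differ by 1 residue, with the substitution counted from residue 1, the conserved C.

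clone A, TRBJ2-7: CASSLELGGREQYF

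clone F, TRBJ2-7, R10L: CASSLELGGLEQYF

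neighbor, TRBJ2-7, G9W: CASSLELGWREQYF

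neighbor, TRBJ2-7, R10G: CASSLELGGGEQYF

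neighbor, TRBJ2-7, E6D: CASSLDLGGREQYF

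neighbor, TRBJ2-7, G9E: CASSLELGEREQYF

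Clone A holds all 5 germline residues of TRBV16, and its last 4 residues, EQYF, are those of TRBJ2-7. Between them lie ELGGR, of which LGG is also in a frame of TRBD2. The second set shows the other clonotypes that lead a tumor or are shared between tumors.

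clone B, TRBJ1-1: LAGAPDTEV

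clone C, TRBJ2-5: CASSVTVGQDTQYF

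clone D, TRBJ2-7: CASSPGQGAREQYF

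clone E, TRBJ2-3: LDNRGAETL

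clone G, TRBJ2-7: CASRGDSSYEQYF

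clone H, TRBJ2-7: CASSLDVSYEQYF

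clone K, TRBJ2-7: LEGTGGYEQ

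clone L, TRBJ1-1: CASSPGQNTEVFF

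Of these, clones B, E, H and K begin with the 5 germline residues, and the residues GTGG of clone K are a frame of TRBD1 and of TRBD2.

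TRBV16 took the most reads of any TRBV gene in distant tumor 2 and ranked between 2 and 9 in the other libraries, and clone A alone held 37.8% to 47.4% of its reads in 3 of the 4 tumors. The TRBV16 share of productive reads was 4.45% in treated tumor 1 (95% interval 4.32% to 4.60%) and 10.3% in treated tumor 2 (10.01% to 10.5%). It was 11.5% in distant tumor 1 (11.2% to 11.7%) and 15.2% in distant tumor 2 (14.9% to 15.6%), against 7.04% and 6.94% in spleens 1 and 2. The group means were 7.35% ± 4.10 in treated tumors, 13.4% ± 2.68 in distant tumors and 6.99% ± 0.0723 in spleens (SD, n = 2 each). Both treated tumors lay below both distant tumors, the gap between treated tumor 2 and distant tumor 1 was smaller than the SD of the treated tumors, and the spleens lay between the treated tumors.

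Clone A had 0 reads in treated tumor 1, so that its share there could be at most 0.00361%. It had 2172 reads (3.87%) in treated tumor 2, 4461 (5.43%) in distant tumor 1 and 2494 (5.89%) in distant tumor 2, against 6 and 5 reads in spleens 1 and 2 (0.00619% and 0.00369%). It ranked 1 in treated tumor 2, 3 in distant tumor 1 and 1 in distant tumor 2 among all clonotypes of every TRBV gene, and 497 and 994 in the spleens. In the pair numbered 1 its share was at least 1506-fold lower in the treated tumor, counted against the floor of 3 reads, and in the pair numbered 2 the share in the treated tumor was 0.657 times that in the distant tumor.

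Without clone A, TRBV16 held 4.45% of productive reads in treated tumor 1 and 6.38% in treated tumor 2, 6.02% in distant tumor 1 and 9.35% in distant tumor 2, against 7.04% and 6.94% in the spleens. Treated tumor 2 and distant tumor 1 then changed places, and 3 of the 4 tumors lay below both spleens. The means without clone A were 5.42% ± 1.36 in treated tumors and 7.69% ± 2.36 in distant tumors (SD, n = 2 each), so a difference of the means of -6.00 percentage points with clone A became one of -2.27 without it.

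**Figure D1:**
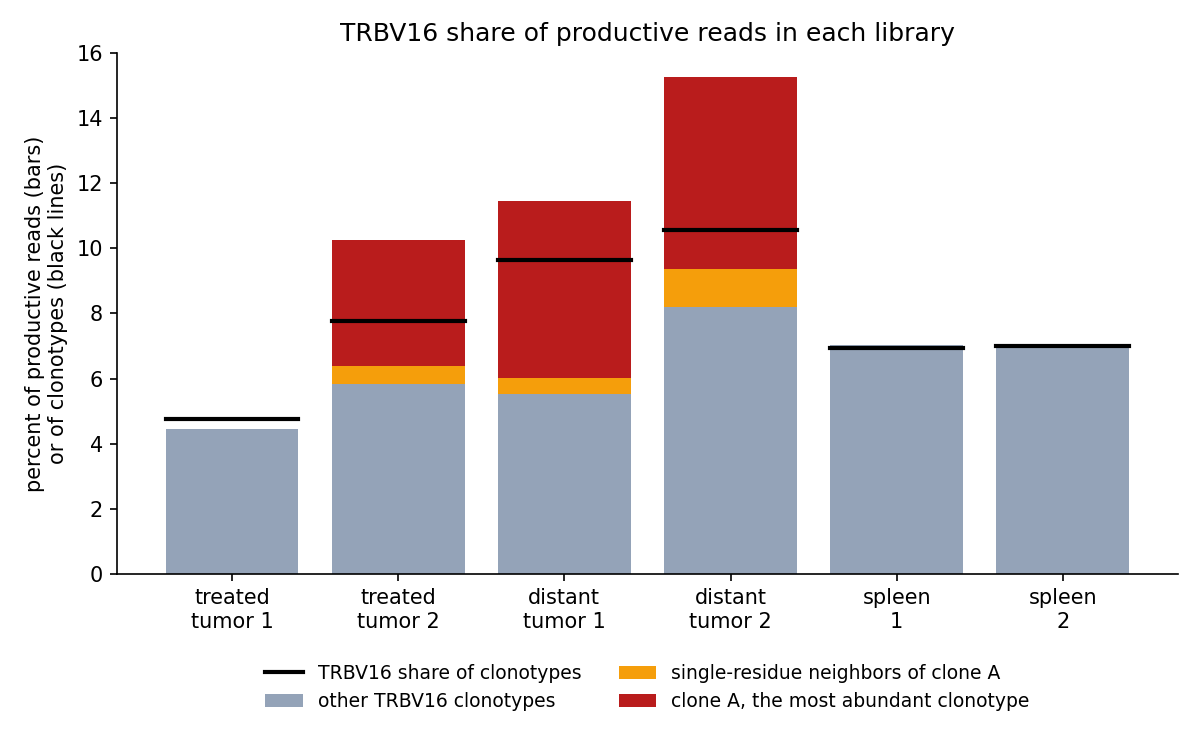
TRBV16 in the 6 libraries: each bar is the TRBV16 share of productive reads in percent, divided into clone A, its neighbors that differ by 1 residue and all other TRBV16 clonotypes, and each black line is the TRBV16 share of clonotypes in percent. Clone A takes 3.87% to 5.89% of reads in 3 tumors and none in treated tumor 1, and without it and its neighbors the bars lie between 4.45% and 8.20%.

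The 3 TRBV genes whose pattern of read shares over the 6 libraries was most like that of TRBV16, of 20 other genes compared, were TRBV5, TRBV17 and TRBV3, at root mean square distances of 0.50, 0.52 and 0.56 between their centred log2 shares. TRBV5 held 9.35% and 17.8% of reads in treated tumors 1 and 2, 8.91% and 14.0% in distant tumors 1 and 2, and 7.81% and 7.66% in spleens 1 and 2. TRBV17, the next gene on the chromosome after TRBV16 (chr6:41163062-41163556), held 1.17% and 1.41% in treated tumors, 2.73% and 3.20% in distant tumors and 2.64% and 2.76% in spleens. The gene before it, TRBV15 (chr6:41141188-41141658), had a distance of 1.04 and was highest in treated tumor 1 and spleen 2, at 5.64% and 5.89%. All values of this measure rest on the same 6 libraries and on their depth.

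Counted by clonotypes instead of reads, the TRBV16 share was 4.76% in treated tumor 1 and 7.76% in treated tumor 2, 9.65% in distant tumor 1 and 10.6% in distant tumor 2, against 6.94% and 6.99% in spleens 1 and 2. Both treated tumors were below both distant tumors, and the spleens lay between the treated tumors. The log2 fold change of treated over distant tumors was -0.69 (SE 0.29), with an edgeR quasi-likelihood adjusted p of 0.194 over the 21 TRBV genes tested, so TRBV16 did not pass the threshold of 0.05. That of tumors over spleens was 0.19 (SE 0.25, edgeR adjusted p = 0.647). The background was 1 called gene of 21 (4.76%) for treated against distant tumors and 2 of 21 (9.52%) for tumors against spleens. Without treated tumor 2 the log2 fold change of the first comparison was -1.08. That value rests on treated tumor 1 alone, which has no reads of clone A, against distant tumors that hold clone A and its near-copies. With any other library left out it lay between -0.76 and -0.38. With near-copies left out the shares were 4.91% and 6.55% in treated tumors, 7.98% and 8.84% in distant tumors and 7.01% and 7.00% in spleens. The log2 fold change of treated over distant tumors was then -0.56 (edgeR adjusted p = 0.108).

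TRBV16 clonotypes of 100 or more reads occurred in all 4 tumors and in neither spleen. Clonotypes of at least 100 reads numbered 2 in treated tumor 1, 5 in treated tumor 2, 6 in distant tumor 1 and 5 in distant tumor 2. They took 30.9% and 66.8% of TRBV16 reads in treated tumors 1 and 2, against 58.3% and 61.0% in distant tumors 1 and 2. In treated tumor 1 most of the other TRBV16 reads, 49.3% of all, lay in 60 clonotypes of 10 to 99 reads. Among other TRBV genes, clonotypes of at least 100 reads took 42.3% and 47.5% of reads in treated tumors, 49.3% and 26.2% in distant tumors and 0.699% and 0.892% in spleens, so large clonotypes in tumors were not limited to TRBV16. In spleens 1 and 2 clonotypes seen in 1 read took 47.0% and 50.5% of TRBV16 reads.

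At an equal depth of 3704 TRBV16 reads, treated tumors 1 and 2 held 608 and 407 TRBV16 clonotypes, distant tumors 1 and 2 held 546 and 720, and spleens 1 and 2 held 2829 and 3056. All 4 tumors were below both spleens, with 570 ± 130.3 (SD, n = 4) against 2942 ± 160.5 (SD, n = 2). The exact permutation test gave p = 0.0667 (two-sided), the smallest that 4 against 2 libraries allow, so it cannot pass 0.05. Treated and distant tumors overlapped, with 508 ± 142 against 633 ± 123 (SD, n = 2 each, exact permutation p = 0.667, where 2 against 2 cannot go below 0.333). Without clone A, at a depth of 3576 reads, they did not overlap, with 591 and 584 clonotypes in treated tumors 1 and 2, against 845 and 1010 in distant tumors 1 and 2 (exact permutation p = 0.333, the smallest possible). The near-copies of clone A stayed in this count. With near-copies left out and clone A kept, treated and distant tumors overlapped, at 277 ± 144 against 404 ± 116 (SD, n = 2 each, exact permutation p = 0.667). Leaving out both was not tested.

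The inverse Simpson index, the number of equally abundant clonotypes that would give the same concentration, was 12.4 and 5.48 in treated tumors 1 and 2, 4.38 and 5.86 in distant tumors 1 and 2, and 4390 and 5956 in spleens 1 and 2. Without clone A it was 12.4 and 9.77 in treated tumors and 79.6 and 17.7 in distant tumors. Distant tumor 1 was thus the lowest library with clone A and the highest tumor without it.

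**Figure D2:**
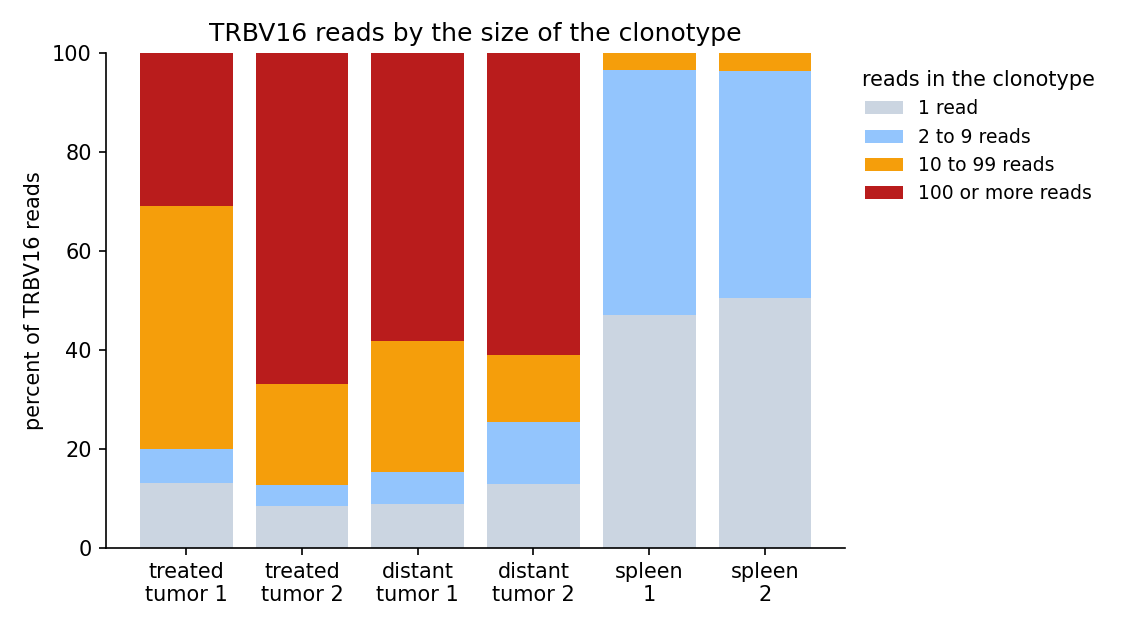
Share of TRBV16 reads, in percent, held by clonotypes of 1 read, 2 to 9, 10 to 99 and 100 or more reads in each library. Clonotypes of 100 or more reads hold 30.9% to 66.8% in the 4 tumors and 0 in the spleens.

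Apart from clone A, some leading TRBV16 clonotypes were seen in 1 tumor and others in several. Clone D had 1006 reads in treated tumor 1, 27.2% of its TRBV16 reads, and 0 in the other 5 libraries. Clone B had 862 reads in distant tumor 2, 13.4% of its TRBV16 reads, and 0 in the others. Both were thus seen in 1 tumor and in neither spleen.

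Clones C and E were seen in both tumors numbered 2 and were larger in the treated one. Clone C had 1019 reads in treated tumor 2 and 20 in distant tumor 2, with 1 in spleen 2, and its share was 38.5-fold higher in the treated tumor. Clone E had 408 and 64 reads in the same tumors and 5 in spleen 2, and its share was 4.81-fold higher in the treated tumor. Clone G was the reverse, with 29 reads in treated tumor 2, 190 in distant tumor 2, 1 in spleen 1 and 28 in spleen 2. None of these 3 had a read in either tumor numbered 1.

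Clones H and L were seen in both tumors numbered 1. Clone H had 137 reads in treated tumor 1 and 253 in distant tumor 1, against 1 in treated tumor 2, 0 in distant tumor 2 and 2 and 5 in spleens 1 and 2. Clone L had 99 reads in treated tumor 1 and 217 in distant tumor 1, 3 in spleen 1 and 0 in the 3 libraries numbered 2. The shares of clones H and L in treated tumor 1 were 0.535 and 0.451 times those in distant tumor 1.

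Of the 13417 TRBV16 clonotypes 12649 (94.3%) were seen in 1 library, and 1 was seen in all 6. That one was clone K, with 91 and 51 reads in treated tumors 1 and 2, 223 and 61 in distant tumors 1 and 2, and 13 and 21 in spleens 1 and 2. In all, 6 TRBV16 clonotypes had at least 10 reads in tumors of both numbers. Beside clone K they were clone A and its neighbors clone F, G9E, R10G and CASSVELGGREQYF (L5V), the last with 10 reads in treated tumor 2, 11 in distant tumor 1 and 13 in distant tumor 2. Sharing between libraries was not counted for clonotypes of other TRBV genes, so neither count is shown to be particular to TRBV16.

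**Figure D3:**
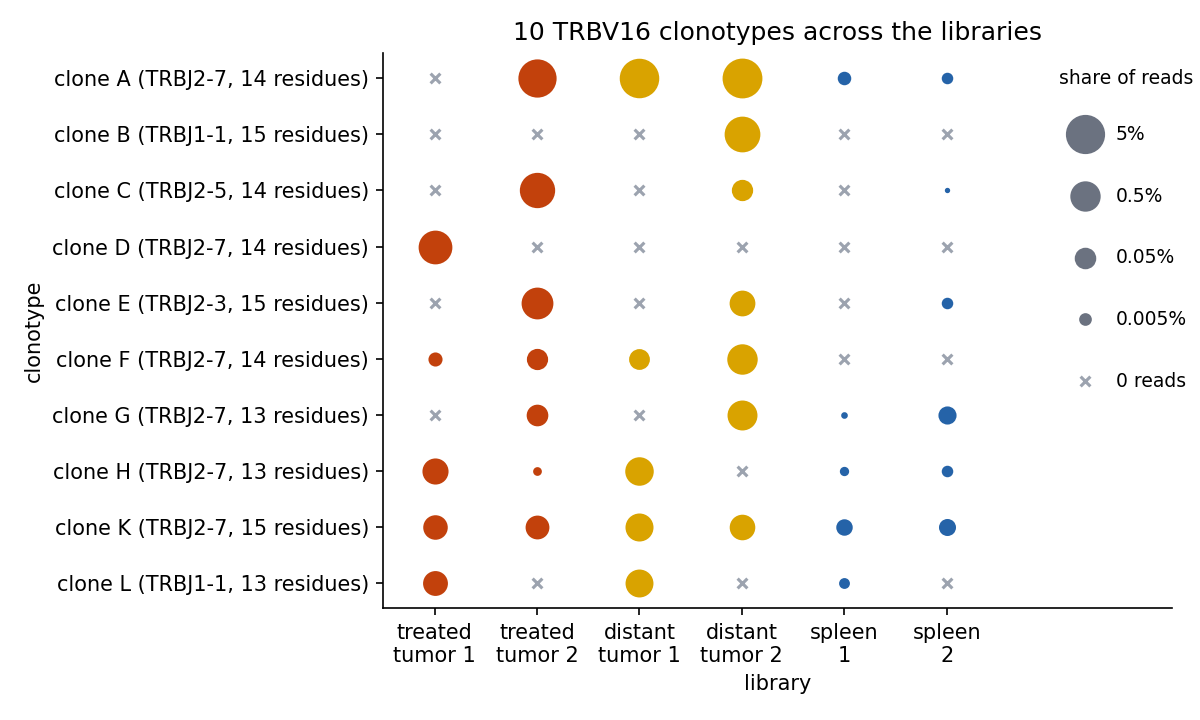
Share of productive reads of 10 TRBV16 clonotypes in the 6 libraries, with the area of a dot growing with the log10 of the share and a cross for 0 reads. Clone A is large in 3 tumors, clones C, E and G appear in tumors numbered 2, clones H and L mainly in tumors numbered 1, and clone K in all libraries.

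Outside clone A, the TRBV16 reads in shared clonotypes were more numerous within a number than across numbers. With clone A left out, clonotypes also present in the distant tumor of the same number held 19.4% of the TRBV16 reads of treated tumor 1 and 55.0% of those of treated tumor 2, against 3.56% and 6.63% for the distant tumor of the other number. Clonotypes also present in the spleen of the same number held 25.2% and 48.7% of TRBV16 reads in treated tumors 1 and 2. For distant tumors 1 and 2 these shares were 43.0% and 22.9%. With the spleen of the other number they were 14.8% and 2.49% for treated tumors 1 and 2, and 17.7% and 11.2% for distant tumors 1 and 2. The share was higher with the same number in all of these 6 comparisons.

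The Morisita-Horn index, which is 1 for identical and 0 for disjoint clonotype abundances, was 0.873 for treated tumor 2 and distant tumor 1, 0.837 for treated and distant tumor 2 and 0.920 for the 2 distant tumors. Without clone A the same pairs gave 0.0138, 0.0571 and 0.0340. For treated and distant tumor 1 it was 0.0157 with clone A and 0.0983 without it. The high overlap of the first 3 pairs did not hold without clone A.

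Clone A was accompanied by 103 TRBV16/TRBJ2-7 clonotypes that differ from it by 1 residue, with 1219 reads in all. They occurred at all 14 positions of the CDR3, with 5 to 13 at each, and the conserved first C and last F had 6 each. Position 10 held 34.2% of their reads and position 9 held 15.3%, mainly through clone F and the G9W neighbor. The neighbors had 6 reads in treated tumor 1, 301 in treated tumor 2, 411 in distant tumor 1 and 489 in distant tumor 2, against 4 and 8 reads in spleens 1 and 2.

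Relative to clone A, the neighbors came to 13.9% of its reads in treated tumor 2, 9.21% in distant tumor 1 and 19.6% in distant tumor 2. Without the most abundant neighbor of each library these shares were 8.70%, 8.41% and 10.9%. For the 4 other TRBV16 clonotypes of at least 400 reads in a library the neighbors came to 7.16% to 11.4%, and for 54 such clonotypes of other TRBV genes the median was 7.94%, with a range of 4.93% to 63.4%. Without the most abundant neighbor of each, the median for those 54 was 7.10% and the highest value 43.9%. The neighbors of clone A thus lay within the range seen around other abundant clonotypes, but above both medians in each of these tumors. In treated tumor 2 and distant tumor 2, at 13.9% and 19.6%, they were also above those of the 4 other TRBV16 clonotypes.

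Clone F and the G9W neighbor stood out among them. Clone F had 6 reads in treated tumor 1, where clone A had none, 26 in treated tumor 2, 34 in distant tumor 1, 216 in distant tumor 2 and 0 in both spleens. Among the TRBV16 clonotypes of distant tumor 2 it ranked 3. The G9W neighbor had 112 reads in treated tumor 2 and 0 in every other library.

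TRBV16 clonotypes joined TRBJ2-7 more often than other clonotypes did in all 6 libraries, and the excess was large in the tumors. TRBJ2-7 took 40.8% and 37.6% of TRBV16 clonotypes in treated tumors 1 and 2, 50.0% and 46.7% in distant tumors 1 and 2, and 19.8% and 21.2% in spleens 1 and 2. Among clonotypes of other TRBV genes it took 15.5% to 19.4%. The mean difference was 18.2 percentage points ± 14.0 (SD, n = 6), with an exact sign-flip permutation p of 0.0312, the smallest that 6 libraries allow, and an adjusted p of 0.0625 over the 12 TRBJ genes. None of the 12 TRBJ genes passed 0.05 after adjustment, while 6 of 12 had that smallest unadjusted exact p. With near-copies left out the mean difference for TRBJ2-7 was 13.9 percentage points ± 10.4 (SD, n = 6), again higher in 6 of 6 libraries.

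The other 5 TRBJ genes at the smallest p were all of the TRBJ1 cluster and were less common with TRBV16 in 6 of 6 libraries. TRBJ1-2 took 2.46% ± 1.11 of TRBV16 and 6.70% ± 2.72 of other clonotypes, and TRBJ1-6 took 1.03% ± 0.618 of TRBV16 and 5.25% ± 2.66 of other clonotypes (SD, n = 6 each). For TRBJ1-3, TRBJ1-4 and TRBJ1-5 the mean differences were -1.77, -1.91 and -1.098 percentage points. With near-copies left out, TRBJ1-2, TRBJ1-4 and TRBJ1-6 were lower in 6 of 6 libraries, and TRBJ1-3 and TRBJ1-5 in 5 of 6. TRBJ shares are parts of a whole, so these lower values are not independent of the TRBJ2-7 excess. The whole TRBJ2 cluster held 82.2% and 90.9% of TRBV16 clonotypes in treated tumors 1 and 2, 81.5% and 68.6% in distant tumors and 73.1% and 72.9% in spleens, against 60.5% to 68.2% of other clonotypes.

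Counted in reads, TRBJ2-7 held 52.8% and 49.1% of TRBV16 reads in treated tumors 1 and 2, 67.7% and 60.3% in distant tumors 1 and 2, and 20.6% and 21.2% in spleens 1 and 2. Without clone A these shares were 52.8% and 18.2% in treated tumors and 38.5% and 35.3% in distant tumors. Treated tumor 2 then lay below both spleens, and the other 3 tumors lay above them. TRBJ1-1 took 20.97% of TRBV16 clonotypes in distant tumor 2, where clone B uses it, and 3.42% to 10.9% in the other libraries. TRBJ2-5, the partner of clone C, took 23.1% in treated tumor 2 and 7.88% to 14.97% elsewhere.

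**Figure D4:**
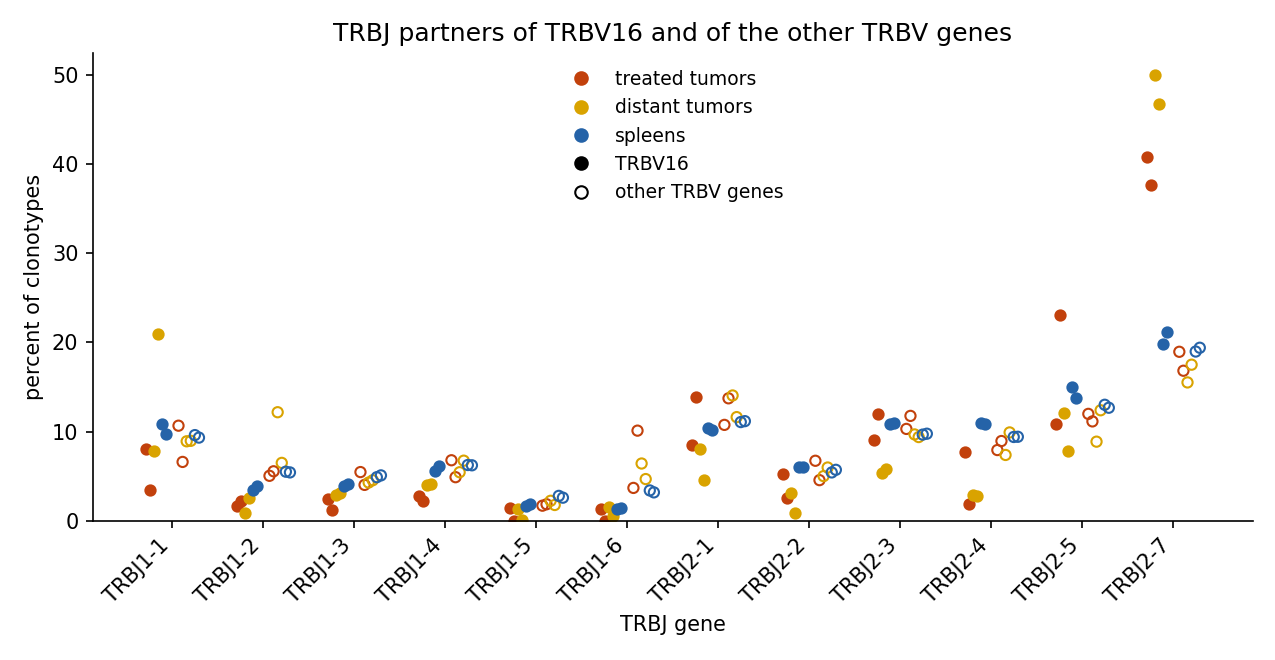
Share of clonotypes, in percent, that join each of 12 TRBJ genes, for TRBV16 (filled circles) and all other TRBV genes (open circles), with 1 circle per library colored by tissue. For TRBJ2-7 the 4 tumors lie at 37.6% to 50.0% with TRBV16 and at 15.5% to 19.0% with other TRBV genes, and the spleens at 19.0% to 21.2% in both.

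Between tissues, no TRBV16-TRBJ pair of 12 passed the test on clonotypes across all 224 TRBV-TRBJ pairs. The background was 0 of 224 pairs (0%) by edgeR in either comparison, with 19 pairs at an unadjusted p under 0.05 for treated against distant tumors and 36 for tumors against spleens. TRBV16/TRBJ2-7 had a log2 fold change of 1.27 (SE 0.27) for tumors over spleens, with an edgeR adjusted p of 0.191, and of -1.01 (SE 0.30) for treated over distant tumors, with an edgeR adjusted p of 0.356. DESeq2 called the first, at 1.61 (SE 0.38) with an adjusted p of 0.00585. These values include the near-copies of clone A, the TRBJ2-7 clonotype by which TRBV16 was selected. With near-copies left out, tumors over spleens fell to 0.89 (SE 0.24, edgeR adjusted p = 0.170). Treated over distant tumors was then -0.61 (SE 0.27, edgeR adjusted p = 0.550). DESeq2 with near-copies left out was not tested. Over the 12 TRBV16 pairs the median log2 fold change was -0.66 for treated over distant tumors and -0.63 for tumors over spleens, against 0.03 and -0.22 over all 224 pairs.

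The TRBV16 CDR3 was slightly longer than that of other TRBV genes in every library. Its mean length over clonotypes was 13.97 and 14.13 residues in treated tumors 1 and 2, 14.00 and 14.18 in distant tumors 1 and 2, and 13.94 and 13.92 in spleens 1 and 2. The means for other TRBV genes lay between 13.87 and 13.98. The difference was 0.113 residues ± 0.0987 (SD, n = 6), with an exact sign-flip permutation p of 0.0312 and an adjusted p of 0.0469 over the 3 CDR3 features tested. It stood at 6 of 6 libraries also with near-copies left out, at 0.0919 residues. This test, like that of hydropathy below, takes the 6 libraries as separate units, while the series names 2 mice.

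Hydropathy (Kyte-Doolittle scale, higher for oily residues) of the CDR3 middle, without the first and last 4 residues, was higher with TRBV16 in all 6 libraries. It was -0.91 and -0.60 in treated tumors 1 and 2, -0.74 and -0.56 in distant tumors 1 and 2, and -0.80 in both spleens, against -1.27 to -1.13 with other TRBV genes. The mean difference was 0.474 ± 0.144 (SD, n = 6, exact sign-flip permutation p = 0.0312, adjusted p = 0.0469). Residue 5, the L of the germline end, lies in this middle. With it left out too the mean difference fell to 0.0779 ± 0.0620 (SD, n = 6), higher in 6 of 6 libraries (adjusted p = 0.0469, exact permutation). It was 0.112 and 0.133 in treated tumors 1 and 2, 0.00635 and 0.152 in distant tumors 1 and 2, and 0.0290 and 0.0341 in spleens 1 and 2. Distant tumor 1 was thus barely higher. Net charge of the middle did not pass the test, with -0.360 ± 0.122 for TRBV16 and -0.408 ± 0.0353 for other TRBV genes (SD, n = 6 each, exact permutation adjusted p = 0.375).

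**Figure D5:**
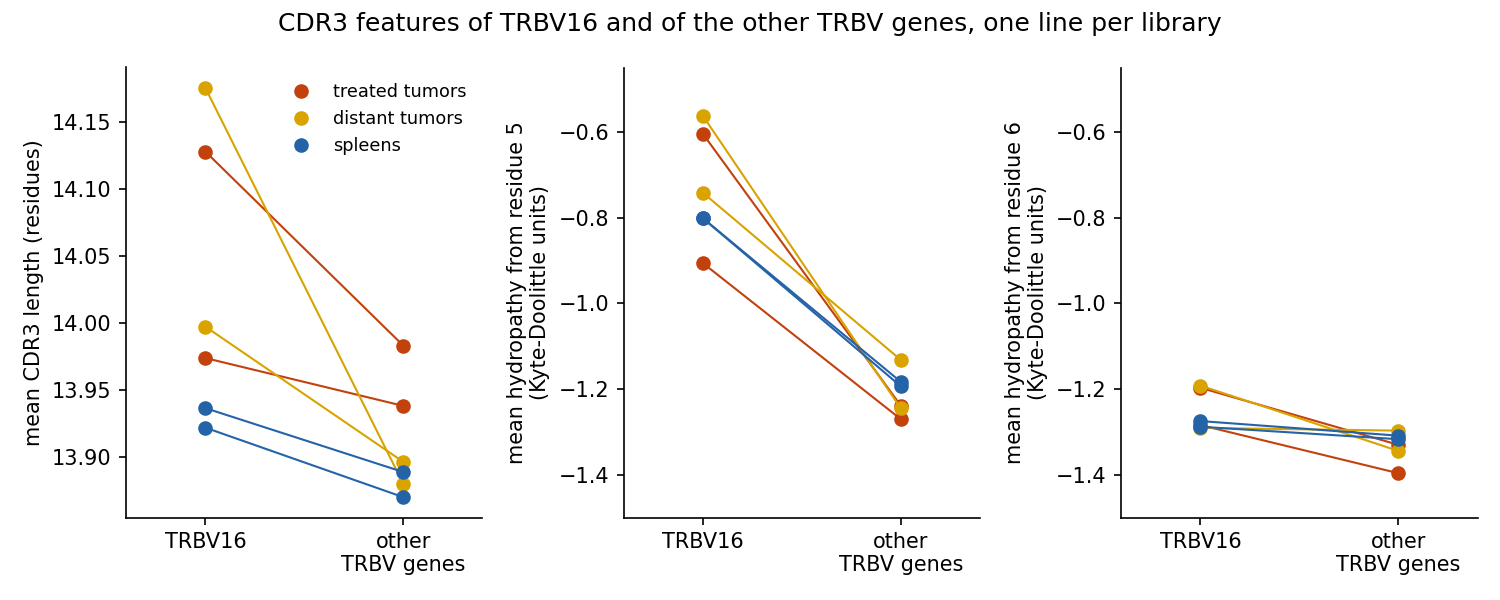
Mean CDR3 length in residues and mean hydropathy in Kyte-Doolittle units from residue 5 and from residue 6, with 1 line per library joining TRBV16 to the other TRBV genes and colors for the tissues. All 6 lines fall to the right in each panel, and the mean drop in hydropathy is 0.474 from residue 5 and 0.0779 from residue 6.

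Within TRBV16, the CDR3 averaged 14.07 ± 0.0986 residues in tumors (SD, n = 4) and 13.93 ± 0.0103 in spleens (SD, n = 2), with an exact permutation p of 0.133 (two-sided). All 4 tumors were above both spleens. Treated and distant tumors averaged 14.05 ± 0.109 and 14.09 ± 0.126 residues (SD, n = 2 each, exact permutation p = 0.667), and their libraries overlapped.

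The germline start of the CDR3 was found at different shares in abundant and in rare tumor clonotypes. CDR3s that begin with CASSL made up 28.6% and 28.0% of TRBV16 clonotypes in treated tumors 1 and 2, 31.7% and 39.3% in distant tumors 1 and 2, and 43.6% and 42.4% in spleens 1 and 2, against 7.65% to 13.7% of other clonotypes. Those that go on with E or D, the residues that the 2 left-over germline bases begin, made up 11.5% to 19.96% of TRBV16 and 1.12% to 2.56% of other clonotypes.

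Among TRBV16 clonotypes of at least 10 reads, 98.4% and 93.3% began with CASS in treated tumors 1 and 2, 95% and 95.8% in distant tumors 1 and 2, and 88.2% and 90.5% in spleens 1 and 2. Among those seen in 1 read the shares were 62.0% and 51.3% in treated tumors, 56.0% and 52.3% in distant tumors and 82.8% and 82.9% in spleens. Without near-copies they were 51.3% and 35.5% in treated tumors, 46.6% and 48.3% in distant tumors and 82.8% and 82.9% in spleens. Among the abundant clonotypes the share that began with CASS was thus higher in all 4 tumors than in both spleens. These clonotypes numbered only 17 in spleen 1, 21 in spleen 2 and 30 in treated tumor 2, against 48 to 100 in the other tumors. Their order thus rests on few clonotypes and was not tested. Among clonotypes seen in 1 read the share was lower in all 4 tumors than in both spleens. The longer start CASSL was found in 50% and 53.3% of the clonotypes of at least 10 reads in treated tumors 1 and 2, 49% and 70.8% in distant tumors 1 and 2, and 41.2% and 52.4% in spleens 1 and 2, where the tissues overlapped.

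Marked reads, whose CDR3 holds a stop or frame mark, made up 4.59% and 4.14% of TRBV16 reads in treated tumors 1 and 2, 4.21% and 4.63% in distant tumors 1 and 2, and 6.02% and 5.93% in spleens 1 and 2. The means were 4.92% ± 0.842 for TRBV16 and 5.36% ± 0.940 for other TRBV genes (SD, n = 6 each). Leaving out the reads of clone A changed the sign of the mean difference. These reads carry no marks, so this step can only raise the TRBV16 share of marked reads. Without the reads of clone A the TRBV16 shares were 4.59% and 6.49% in treated tumors 1 and 2, 7.71% and 7.33% in distant tumors 1 and 2, and 6.02% and 5.93% in spleens 1 and 2. The 3 tumors that hold clone A then lay above the other TRBV genes of the same library, which were at 4.48% in treated tumor 2, 4.51% in distant tumor 1 and 4.88% in distant tumor 2. Treated tumor 1 and spleens 1 and 2 stayed below the other TRBV genes, which were at 5.29%, 6.34% and 6.67%. Abundant clonotypes of the other TRBV genes were kept in.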

How the data were processed

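Per the labels' protocols, total RNA was made into double-stranded cDNA, an adaptor was ligated, TCR-β was amplified with constant region primers, and libraries were sequenced on an Illumina MiSeq. Per the file headers, each deposited table lists a TRBV gene, a TRBJ gene, a CDR3 sequence, a read count and a percent. The deposited read count is unnormalized. The authors' percent matched reads over productive reads to within 0.00499 percentage points, and shares were recomputed from counts. The aligner, germline reference and any error correction are not given in the sources used, and the files list residues only. Germline sequences and positions are from GENCODE M21 (GRCm38). Sequences were matched by symbol.

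Groups come from the sample titles. TRBV16, its clonotypes and the tests were chosen with earlier results of these data known. Named clonotypes are the 3 most abundant of each library, those with at least 10 reads in tumors of both numbers, the leading ones of both spleens and the 5 most abundant neighbors of clone A. Clonotypes counted once per TRBV gene or TRBV-TRBJ pair were tested with edgeR 4.0.16 (quasi-likelihood, low-count filter, library totals, 3 groups, R 4.3.3) over all genes or pairs, and exact tests were two-sided (Python, scipy). Simulated data for the treated against distant comparison, with 40 of 222 pairs changed, gave 37 of these called and 4 others. In the measured libraries 0 of 224 pairs were called, and TRBV16/TRBJ1-1 at -2.18 had an edgeR adjusted p of 0.351. Whether the simulated data vary as much as the measured libraries was not tested. The 37 called pairs therefore give no detection rate for the measured libraries. Alternatives were TMM, no filter, DESeq2 1.42.0, reads in place of clonotypes, at least 2 reads, the replicate block and each library left out. Leaving out near-copies, residue 5 from the hydropathy and clone A from the marked reads was chosen after seeing the data. Equal numbers were checked over 21 TRBV genes: deviations from group means correlated at 0.516 between treated and distant tumors, 0.0796 between treated tumors and spleens and 0.0573 between distant tumors and spleens, and the labels do not tie a number to a mouse. TRBV16 clonotypes were shared more within a number, so pairing is possible and was fitted as an alternative.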

Additional observations from a re-analysis of the deposited data

Results flagged for a closer look

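Among 36 measures examined for a library far from the others of its kind, where chance flags about 1 in 20, 4 were marked, all of them TRBJ shares. Treated tumor 1 had 7.73% of its TRBV16 clonotypes with TRBJ2-4, against 1.88% to 2.87% in the other 3 tumors. Distant tumor 2 had a TRBJ1-1 share 12.0 percentage points higher for TRBV16 than for other TRBV genes, against differences of -3.18 to 1.27 in the other 5 libraries. Clone B of distant tumor 2 uses TRBJ1-1. Distant tumor 1 had a TRBJ1-2 difference of -11.25 percentage points, against -3.93 to -1.499 elsewhere, and its TRBJ1-2 share among other clonotypes was 12.2%. Treated tumor 2 had a TRBJ1-6 difference of -10.1 percentage points, against -4.85 to -1.78 elsewhere, with 0 TRBV16 clonotypes on TRBJ1-6 and a share of 10.1% among other clonotypes. What sets these libraries apart was not tested.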

How the results depend on the processing

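Of 341 recomputed values for 36 results, 281 were kept. For values with a p-value this means the same direction and the same side of the threshold. Counts of called genes or pairs and read shares have no such threshold and were kept if close to the value in the report. The count of TRBV genes called between treated and distant tumors, 1 in the report, was 0 with TMM, with reads and with reads without the top clonotype of each gene, 2 with DESeq2, with clonotypes of at least 2 reads and with near-copies left out, and 0 to 4 with a library left out. Between tumors and spleens it was 2 in the report, 0 with reads, 7 with at least 2 reads, 5 with near-copies left out and 0 to 5 with a library left out. TRBV16 itself, at 0.19 between tumors and spleens, was -0.0179 with near-copies left out and -0.00582 without treated tumor 2, with a range of -0.00582 to 0.346 over libraries left out, and between treated and distant tumors it ranged from -1.08 without treated tumor 2 to -0.38 without treated tumor 1. TRBV16-TRBJ pairs called between tumors and spleens, 0 in the report, were 1 with DESeq2 and 0 to 2 with a library left out.

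With 5 libraries the sign-flip test cannot go below 0.0625, so leaving out any library ended the calls for CDR3 length (0.0764 to 0.128 residues) and hydropathy (0.432 to 0.496). The difference in marked reads ranged from -0.484 to -0.385 percentage points. No call is made for it, since the reads of clone A, by which TRBV16 was selected, enter it. Weighted by reads without clone A, length gave 0.190 residues and hydropathy 0.431, both past no threshold, and net charge weighted by reads gave 0.138 and passed, but was 0.0224 (exact permutation adjusted p = 0.906) without clone A. Marked sequences counted once gave 1.498 percentage points in place of -0.445. Leaving the unmarked reads of clone A out of the total, which can only raise the value, gave 0.981 (chosen after seeing the data). TRBV16 length between treated and distant tumors changed sign without treated tumor 1 (0.0417) or distant tumor 2 (0.0537), over a range of -0.125 to 0.0537. The TRBJ1-1 difference changed sign without distant tumor 2, over a range of -1.04 to 1.995. With the replicate block, TRBV16 between treated and distant tumors was -0.72 (edgeR adjusted p = 0.139), and the block changed no call. The causes were not tested. By the floor of 3 reads, a clonotype with a count of 0 could hold up to 0.00221% of reads in spleen 2 and 0.00709% in distant tumor 2.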
